A study of Mus musculus with 8 samples.

Results

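The transcripts described here are those of 10 mouse genes whose proteins remove or read N6-methyladenosine (m6A). They are the demethylases Fto and Alkbh5, the YTH-domain readers Ythdf1, Ythdf2, Ythdf3, Ythdc1 and Ythdc2, and the other RNA-binding readers Igf2bp3, Prrc2a and Fmr1. The genes were chosen by name, and every peak that one of them held on its own strand was taken from the lists. This gave 83 peaks in 7 of the 10 genes, out of 20732 peaks and 4315 genes with a peak in at least 1 list. The libraries came from RAW264.7, a mouse macrophage cell line, exposed for 24 h to 100 µM TBP, TCP or TIP, or given no treatment (control); the labels do not spell out the 3 abbreviations. RNA fragments were pulled down with an anti-m6A antibody and sequenced, and the authors deposited 1 list of peaks per pull-down library, 4 in all. The matching 4 inputs were not used here.

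In mammalian cells m6A is laid down on messenger RNA by a methyltransferase complex in the nucleus, mostly within a short consensus around the adenosine. Fto and Alkbh5 are the known demethylases of m6A in messenger RNA, often called erasers. The YTHDF proteins bind the mark in the cytoplasm: Ythdf2 is known for recruiting the deadenylation machinery, Ythdf1 has been linked to translation, and Ythdf3 acts beside both. Ythdc1 reads m6A in the nucleus, where it affects splicing and export, and Ythdc2 is a helicase best known from germ cells entering meiosis. Since all of these proteins are made from mRNAs, their own transcripts can carry the mark that they read or erase.

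Each condition has 1 library, so no difference below has a replicate check and no p-value is given. Intervals are exact (Clopper-Pearson) 95% intervals and cover counting error only; peaks of 1 gene share their transcript, so even that error is understated. No read counts come with the lists, so the depth at any peak is unknown. A gene without a peak is one for which none was listed; the level of a transcript and its methylation cannot be told apart from a peak list. The lists held 6285 peaks in 3130 genes for TBP, 6981 in 3399 for TCP, 3034 in 1790 for TIP and 4432 in 2478 for control. The authors' score, with no stated scale, was used only to rank peaks inside 1 list, and a rank in one list set beside a rank in another does not show a change in the mark. Of 12 macrophage marker genes, 10 had a peak in TBP, 8 in TCP, 6 in TIP and 9 in control; the markers Adgre1 and Itgam had none in any list. Of 18 markers of T cells, B cells, epithelium, fibroblasts, neurons and hepatocytes, 0 had a peak.

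Of the 83 peaks, all but 1 were held by readers. Of the 10 genes, 5 had a peak in TBP, 6 in TCP, 5 in TIP and 6 in control. Among 21900 protein-coding genes of the RefSeq table, the share with a peak was 14.1% in TBP, 15.3% in TCP, 8.08% in TIP and 11.2% in control. These 21900 include genes whether or not the cells express them, so the share is no like base for genes chosen by name. The same 5 genes, Ythdf1, Ythdf2, Ythdf3, Ythdc1 and Prrc2a, had a peak in all 4 lists. They were 5 of the 7 members with a peak in at least 1 list. Of the 4315 genes with a peak in at least 1 list, 29.7% had one in all 4. The 10 genes held 23 peaks in TBP, which was 0.366% of that list (0.232 to 0.549). They held 23 peaks in TCP (0.329%, 0.209 to 0.494), 16 in TIP (0.527%, 0.302 to 0.855) and 21 in control (0.474%, 0.294 to 0.723). These 4 intervals overlap, but overlap is not a test of a difference. The lists also differ in length, so no order among the counts is read here.

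**Figure D1:**
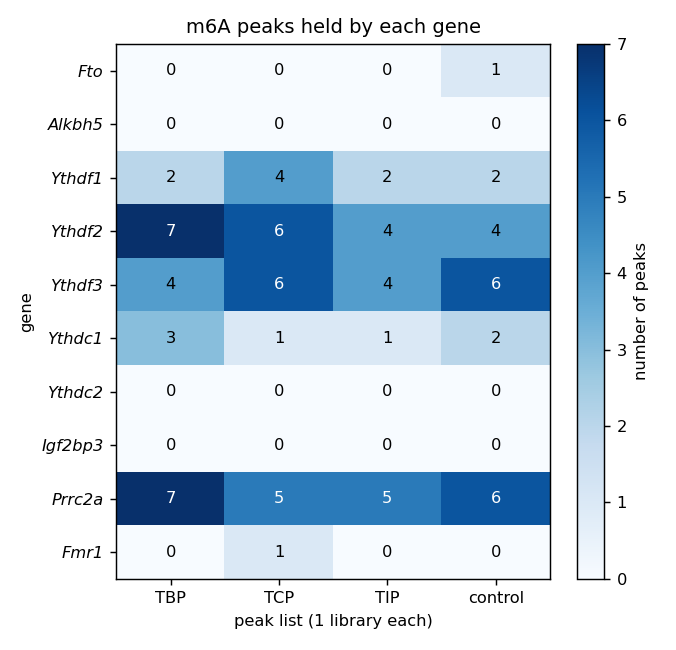
Number of listed peaks held by each of the 10 genes (rows) in each peak list (columns: TBP, TCP, TIP and control, 1 library each). Ythdf2, Ythdf3 and Prrc2a have 4 to 7 peaks in every list, whereas Alkbh5, Ythdc2 and Igf2bp3 have 0 in every list.

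The erasers were nearly without peaks. Fto lies on chromosome 8 from 91313367 to 91668433, plus strand (all coordinates are on GRCm38, mm10). Fto had 0 peaks in TBP, 0 in TCP, 0 in TIP and 1 in control. The control peak was 25 bp wide, in exon 3 of 9, at 91409667 to 91409691. Its score was the lowest in the control list and was shared by 661 peaks, which places the Fto peak at rank 3772 of 4432. Alkbh5, on chromosome 11 from 60537683 to 60558512, had 0 peaks in each of the 4 lists on either strand.

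Of the 7 genes with a peak in at least 1 list, Fto was thus the 1 with a peak in control and none in the 3 compound lists. How many of the 4315 genes had this joint pattern was not counted, so the shares that follow are for each comparison alone. Of the 4315 genes with a peak in at least 1 list, 9.94% had a peak in control and none in TBP. In the same way 9.27% had one in control and none in TCP, and 23.6% had one in control and none in TIP. In the other direction, Fmr1 had a peak in TCP and none in control, where 30.6% of those 4315 genes had this pattern. No gene of the 7 with a peak in at least 1 list had one in TBP and none in control, against 25.1% of the 4315. None did so for TIP, against 7.65%. The other 3 of the 10 had no peak in any list and so could show neither pattern. The 3 comparisons share the control library. The Fto and Fmr1 calls did not survive when peaks below the median score of their list were left out, or when the lists were brought to equal length. Under the median, Ythdc1 took the place of a gene with a peak in each compound list and none in control.

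Ythdf3 held the best-ranked peak of the 10 genes in TBP, TCP and control, and shared the best rank in TIP. It had 4 peaks in TBP, 6 in TCP, 4 in TIP and 6 in control. The gene lies on chromosome 3 from 16183148 to 16217037, plus strand, and 17 of its 20 peaks lay in exon 4 of 5, as the authors numbered it. Of the genes in the control list, 2.38% had 6 or more peaks; 11.6% of the TBP genes had 4 or more, as did 7.21% of the TIP genes.

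The leading Ythdf3 site, a site being a run of overlapping peaks from any list, spanned 16204070 to 16204344. Its TBP peak covered all 275 bp and ranked 47 of 6285. In TCP a 75 bp peak at 16204195 to 16204269 ranked 54 of 6981, with a second, 25 bp peak of rank 5229 at 16204320. The TIP peak, from 16204095 to 16204294, ranked 17 of 3034 in a tie. In control a 125 bp peak at 16204170 to 16204294 ranked 42 of 4432, beside a 25 bp peak of rank 3772. By the smallest rank, the leading peak stood at 0.748% in TBP, 0.774% in TCP, 0.560% in TIP and 0.948% in control. In TIP that rank is loose, because 301 peaks, 9.92% of the list, share the same score and so any rank from 17 to 317. A stretch of 75 bp, from 16204195 to 16204269, was covered in all 4 lists.

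A second Ythdf3 site, at 16204770 to 16204994, also had a peak in every list. Its best peak ranked 378 in TBP, 835 in TCP, 688 in TIP and 456 in control, so it stood lower than the leading site in each list. The 50 bp from 16204895 to 16204944 were common to the 4 lists. Farther along the same exon, a site at 16205070 to 16205144 had a peak in TCP (rank 2604) and in control (rank 1149) and none in TBP or TIP. In the 3′ UTR, TIP and control had overlapping peaks at 16213975 to 16214024, and TBP had a separate 75 bp peak at 16214225 to 16214299. TCP had no peak in the 3′ UTR of Ythdf3.

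Ythdf2 had 7 peaks in TBP, 6 in TCP, 4 in TIP and 4 in control, all in exon 4 of 5 except 3 in the 3′ UTR. It lies on chromosome 4 from 132184916 to 132212256, minus strand. Its 7 TBP peaks were a count reached by 2.84% of the TBP genes, and its 4 control peaks were reached by 7.67% of the control genes. Of these peaks, 2 in TBP, 2 in TCP and 1 in TIP ranked in the lower 50% of their list. At equal list length Ythdf2 had 5 peaks in TBP, 3 in TCP, 4 in TIP and 4 in control.

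The best-ranked Ythdf2 peaks fell at 132204271 to 132204445. There TBP had a 150 bp peak of rank 330 (5.25% of its list) and TCP had peaks of rank 216 (3.09%) and 3744. The TIP peak was among those tied at rank 17, and the control peak, 25 bp wide, ranked 823 (18.6%) with 78 peaks on the same score. Each of the compounds' best peaks here thus held a higher place in its own list than the control peak did, with the tie in TIP reaching down to rank 317, or 10.4%. A neighbouring site at 132204521 to 132204670 had a peak in all 4 lists too. It ranked 2528 in TBP (40.2%), 590 in TCP (8.45%), 17 (tied) in TIP and 823 in control (18.6%). There the TBP peak held a lower place in its list than the control peak did. At neither site was a single base covered in all 4 lists, since the peaks formed a chain of overlaps.

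Near the other end of the exon, Ythdf2 had a site at 132205271 to 132205345 with peaks in TBP (rank 1571), TIP (1687) and control (1328). The TCP list had no peak there, but its 100 bp peak of rank 1294 began at the next base, 132205346. A site at 132204996 to 132205070 was listed with identical edges in TBP (rank 1944) and TCP (rank 5229) and was missing from TIP and control. The 3′ UTR site, 132186737 to 132186886, had a peak in TBP (rank 1944), TIP (rank 318) and control (rank 2107) and none in TCP. It ended 1821 bp before the 3′ end of the gene.

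Ythdf1 had fewer peaks and lower ranks than its paralogs, with 2 peaks in TBP, 4 in TCP, 2 in TIP and 2 in control. It lies on chromosome 2 from 180904377 to 180920936, minus strand. Its best peak ranked 3788 in TBP (60.3% of the list), 715 in TCP (10.2%), 1805 in TIP (59.5%) and 1581 in control (35.7%). The count was highest in TCP, the longest list. With the lists cut to about the length of the shortest, Ythdf1 had 0 peaks in TBP, 2 in TCP, 2 in TIP and 2 in control. In control 353 peaks tied at the cut and all were kept, which left 3290 peaks. The Ythdf1 control peak of rank 2938 was among those tied. Of its 10 peaks, 9 lay in exon 4 of 5; the other was a control peak in the 3′ UTR at 180904502 to 180904551.

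The Ythdf1 peaks recurred at 1 place. At 180910895 to 180910994, TCP had a peak of rank 1020, TIP one of rank 1805 and control one of rank 1581, and all 3 covered 180910895 to 180910944. The TBP list had a 25 bp peak at 180910870 to 180910894, which touches that site without overlapping it. The best TCP peak, 125 bp at 180911170 to 180911294, overlapped no peak of another list; a TIP peak of rank 2704 touched it at 180911295. The other TCP peaks, at 180911495 and 180911920, were in TCP alone.

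In all 3 YTHDF genes most peaks were packed into the fourth of 5 exons, 44 of 51 peaks. From the outermost edges, these peaks took up 1175 bp in Ythdf1, 1175 bp in Ythdf2 and 1225 bp in Ythdf3. Across the 4 lists, 7.99% of the 9623 exon-class peaks lay in the exon before the last by the authors' numbering. Of the 69 exon-class peaks of the 10 genes 45 did, 44 in YTHDF genes and 1 in Ythdc1. That Ythdc1 peak, numbered exon 4 of 5, lay 20053 bp before the 3′ end of the gene. A site with a peak in several lists counts once per list. The length of these exons was not used here, so the packing is not expressed per base of exon.

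**Figure D2:**
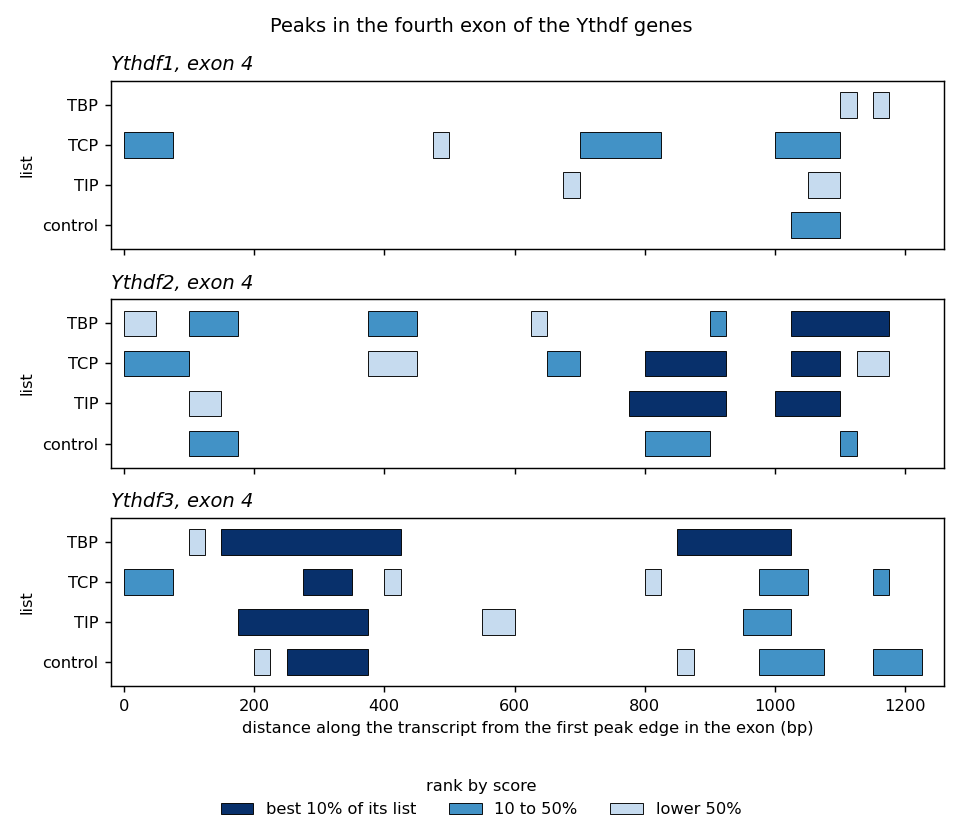
Peaks in exon 4 of Ythdf1, Ythdf2 and Ythdf3 in the TBP, TCP, TIP and control lists, drawn to scale as distance in bp along the transcript from the first peak edge in that exon; the shade gives the rank by the authors' score within the list. The leading Ythdf3 site has a peak shaded as best 10% in all 4 lists, in TIP by the smallest rank of a tie of 301 peaks. Ythdf1 has 4 peaks in the exon in TCP, the longest list, and 1 or 2 in the others; at equal list length it has 2 in TCP.

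Ythdc1, the nuclear reader, was marked mostly in sequences annotated as 3′ UTR. It had 3 peaks in TBP, 1 in TCP, 1 in TIP and 2 in control, and lies on chromosome 5 from 86803980 to 86836659, plus strand. One site, 86829331 to 86829430, had a peak in TBP (rank 2099, 33.4% of the list), TCP (rank 1294, 18.5%) and control (rank 2938, 66.3%). The 3 peaks ended at the same base and were 75 bp wide in TBP, 100 bp in TCP and 50 bp in control. This site is 7229 bp short of the 3′ end of the gene, although the authors' annotation places it in a 3′ UTR. TIP had no peak there.

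The other Ythdc1 sites lay close to the end of the gene or far inside it. At 86836017 to 86836091, which ends 568 bp before the 3′ end, TBP had a peak of rank 2099 and TIP one of rank 890. A further TBP peak lay at 86835817 to 86835866. The second control peak, 25 bp in an exon at 86816582 to 86816606, ranked 3291 and was in control alone. Control and TIP therefore shared no Ythdc1 site.

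Ythdc2, the germ-cell helicase reader, had 0 peaks in all 4 lists on either strand of its span on chromosome 18 from 44827730 to 44889720. Igf2bp3, an mRNA-stabilising reader of the insulin-like growth factor 2 binding protein family, likewise had 0 in its span on chromosome 6 from 49085218 to 49215469. With Alkbh5, these were the 3 of 10 genes without any peak.

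Prrc2a, a large proline-rich protein described as an m6A reader in mouse oligodendrocytes, carried many small peaks. It had 7 peaks in TBP, 5 in TCP, 5 in TIP and 6 in control, and lies on chromosome 17 from 35149076 to 35165321, minus strand. Of these 23 peaks, 20 lay in exon 16 of 31, within 1425 bp, and 11 of the 20 were 25 bp wide, the smallest width in the lists. The rest were 1 peak each in exon 9 (control), exon 12 (TBP) and exon 14 (TCP). The count of 6 control peaks was reached by 2.38% of the control genes. At equal list length Prrc2a had 4 peaks in TBP, 2 in TCP, 5 in TIP and 4 in control.

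The best Prrc2a peaks of TBP and TIP lay in 1 site at 35155643 to 35155767. TBP had a 100 bp peak of rank 140 of 6285, TIP a 75 bp peak tied at rank 17, and control a 25 bp peak of rank 823 (18.6%). TCP had no peak at this site, and its best Prrc2a peak, at 35155543 to 35155567, ranked 1541 (22.1%). At that position TIP (rank 2110) and control (rank 1581) also had a peak, while TBP had one at 35155518 to 35155542, again touching but not overlapping. Of the 15 Prrc2a sites, 0 had a peak in all 4 lists, 2 in 3 lists, 4 in 2 lists and 9 in 1 list. Over all genes, 60.6% of sites were in 1 list and 10.6% in all 4.

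**Figure D3:**
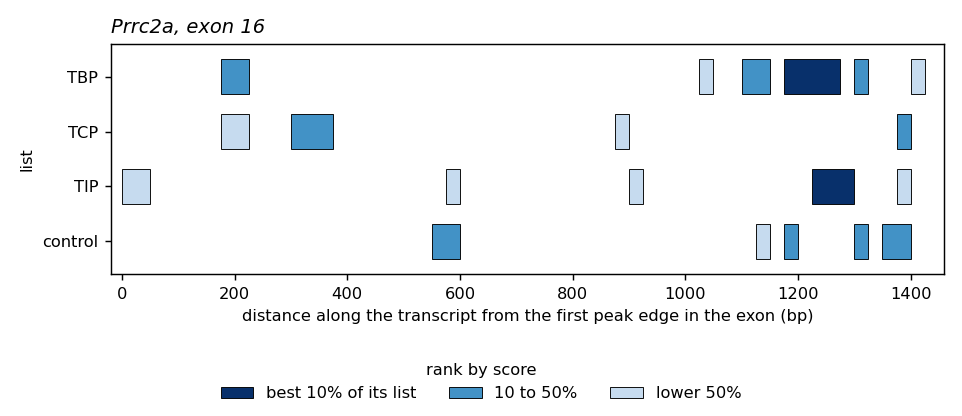
Peaks in exon 16 of Prrc2a in the TBP, TCP, TIP and control lists, drawn to scale as distance in bp along the transcript from the first peak edge in the exon, shaded by rank within the list. Peaks of all 4 lists meet or touch near the right-hand end of the marked stretch, and the 2 best-ranked ones, shaded darkest, are those of TBP and TIP, the TIP one in a tie of 301 peaks.

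Fmr1, which encodes the RNA-binding translational regulator FMRP, had 0 peaks in TBP, 1 in TCP, 0 in TIP and 0 in control. The TCP peak was 25 bp wide, in the 3′ UTR at chromosome X, 68716217 to 68716241, plus strand. Like the Fto peak in control it sat at the lowest score of its list, shared by 1050 TCP peaks, at rank 5932 of 6981. The 2 genes with a peak in a single list were thus both at the floor of that list.

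The best-ranked peaks of these genes fell in recurring sites. In TBP, 4 of the 23 peaks were in the best 10% of the list; in TCP 3 of 23, in TIP 4 of 16 and in control 1 of 21 were. Whole lists had 10.5%, 10.2%, 10.4% and 10.2% of their peaks there. All 4 in TIP were part of the tie of 301 peaks. These peaks belonged to Ythdf2, Ythdf3 and Prrc2a, and each of them lay in a site with a peak in at least 3 lists. How often the best 10% of all peaks lie in such sites was not counted. It is therefore not shown to be particular to these genes. At the other end, 2 TBP, 3 TCP, 1 TIP and 4 control peaks had the lowest score of their list. These were 8.70%, 13.0%, 6.25% and 19.0% of the peaks of these genes, against 14.5%, 15.0%, 10.9% and 14.9% of the whole lists.

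**Figure D4:**
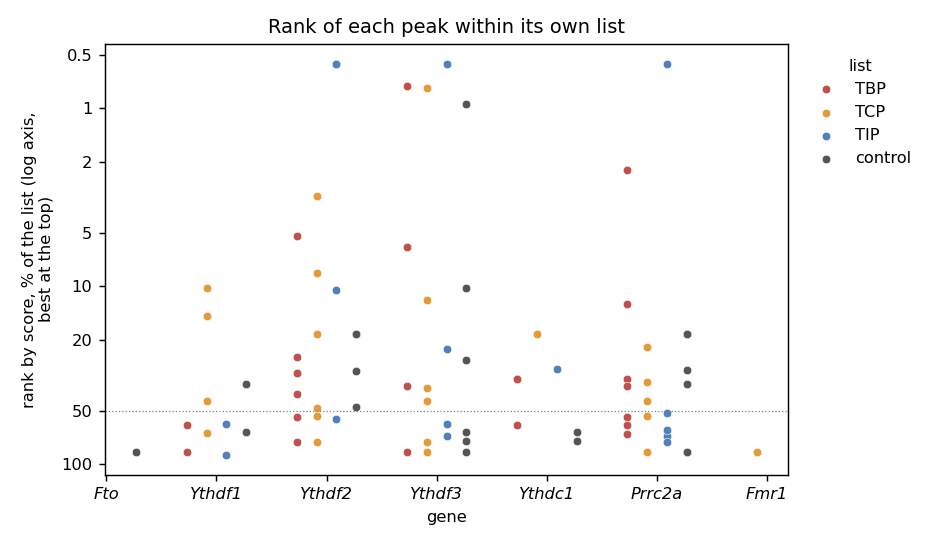
Rank by the authors' score of each peak of the 7 genes with a peak, as a percentage of the length of its own list (log axis, best at the top); colours are the TBP, TCP, TIP and control lists and the dotted line marks 50%. Ythdf3 has a peak in the best 1% of TBP, TCP and control, and in TIP one tied over ranks 17 to 317 (0.560% to 10.4%), while the single Fto and Fmr1 peaks lie near 85%.

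Joined by at least 1 bp of overlap, the 83 peaks formed 46 sites. Of these, 4 had a peak in all 4 lists (8.70%), where 10.6% of all 11565 sites did. A further 6 had one in 3 lists, 9 in 2 lists and 27 in 1 list (58.7%), where 60.6% of all sites were in 1 list. The 10 sites in at least 3 lists were 21.7% of the 46, and 21.7% of all sites were in at least 3 lists. These shares were near the background, so the sites of the reader and eraser transcripts recurred about as often as sites in general. The 4 sites in all lists were the 2 in Ythdf3 and the 2 in Ythdf2 described above. Only those of Ythdf3 had a stretch common to the 4 lists, which 69.4% of all such sites had.

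Several sites missed a list by a margin of 0 bp. Peaks that touch were then joined, a choice made after the values had been seen. This gave 39 sites, of which 7 had a peak in all 4 lists. Of all 10415 sites formed in this way, 12.9% did. The 3 added sites were at 180910870 to 180910994 in Ythdf1, 132205271 to 132205445 in Ythdf2 and 35155518 to 35155592 in Prrc2a. All peak widths of these genes were multiples of 25 bp, from 25 to 275 bp.

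Peak by peak, overlap with control was counted in both directions. In TBP, 9 of 23 peaks overlapped a control peak (39.1%, 19.7 to 61.5), against 40% of all TBP peaks. In TCP 7 of 23 did (30.4%, 13.2 to 52.9), against 35.4%, and in TIP 8 of 16 (50%, 24.7 to 75.3), against 51.8%. Seen from control, 11 of the 21 peaks overlapped a TBP peak (52.4%, 29.8 to 74.3; 57.3% of all control peaks). With TCP it was 7 (33.3%, 14.6 to 57.0; 55.7%), and with TIP it was 9 (42.9%, 21.8 to 66.0; 35.3%). The widest gap was that of control peaks overlapping a TCP peak, 33.3% against 55.7%, a share close to the upper end of its interval. Each of the 6 intervals includes the value of the whole list.

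By annotation class the peaks of these genes lay mostly outside UTRs. In 3′ UTRs were 5 of 23 peaks in TBP (21.7%, 7.46 to 43.7), 2 of 23 in TCP (8.70%, 1.07 to 28.0), 3 of 16 in TIP (18.8%, 4.05 to 45.6) and 4 of 21 in control (19.0%, 5.45 to 41.9). The whole lists had 50.7%, 48.5%, 48.8% and 50.9% of their peaks in 3′ UTRs, in the same order. All other peaks of these genes, 69 of 83, were in exons, and 0 were in 5′ UTRs. Since 64 of the 69 came from exon 4 of the YTHDF genes or exon 16 of Prrc2a, this share describes 4 genes rather than the 10. Ythdc1 had 6 of its 7 peaks in 3′ UTRs.

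**Figure D5:**
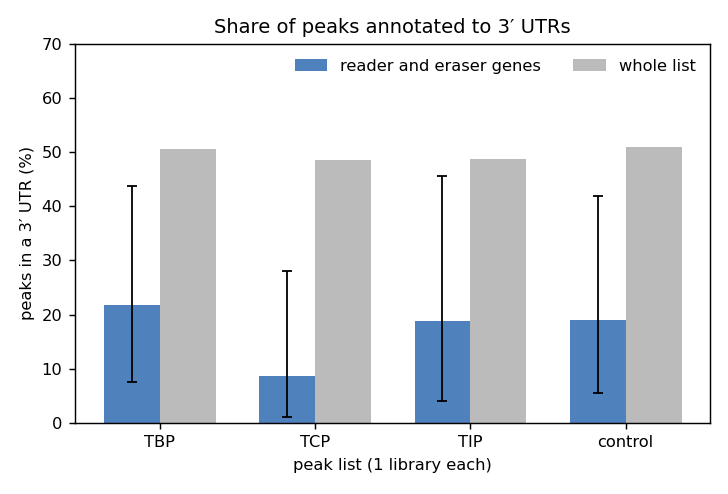
Share of peaks annotated to 3′ UTRs in the TBP, TCP, TIP and control lists, for the reader and eraser genes (blue, with exact 95% intervals for counting error) and for the whole list (grey). The blue bars lie between 8.70% and 21.7%, and the grey bars between 48.5% and 50.9%.

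Other genes of the pathway were counted in the same way, from 2 lists. One held 13 further readers and associated RNA-binding proteins, the other 12 genes of methyltransferases or of their complex partners. Of the 13, 6 had a peak in TBP, 7 in TCP, 5 in TIP and 5 in control. Eif3a, a translation initiation factor subunit, had the most, with 11 peaks in TBP, 9 in TCP, 6 in TIP and 7 in control. G3bp2, a stress granule protein, had 2, 4, 3 and 2 peaks in that order of lists. The FMRP paralogs Fxr1 and Fxr2 and the Igf2bp3 paralogs Igf2bp1 and Igf2bp2 had 0 peaks in each list. Of the 12, 7 had a peak in TBP, 8 in TCP, 6 in TIP and 6 in control. Rbm15 had the most of these, with 8 peaks in TBP, 9 in TCP, 3 in TIP and 5 in control. The catalytic pair Mettl3 and Mettl14 had 0 peaks in each list.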

How the data were processed

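Per the submitters' processing notes, the tools used upstream included Trim Galore 0.6.5, HISAT2 2.1.0, Picard 2.23.5, SAMtools 1.9, HOMER 4.11 and ChIPseeker 1.26, listed without role or order; mm10 (GRCm38) is the genome build. Which program called the peaks, at what threshold and against which background is not given in the sources used here. The authors deposited 1 list per immunoprecipitated library with position, strand, class, nearest gene and a score per peak, with no counts; the score of each peak is the authors' own.

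A peak was given to the gene in the authors' exon annotation (45.0% of peaks), else to their nearest gene where that gene enclosed it on its strand (37.6%), else to a single RefSeq gene over it (15.8%; GRCm38.p6). Small RNA genes were passed over. The annotation step placed 69 of the 83 peaks, the nearest gene 13 and the gene span 1. Ties took the smallest rank. Sites needed 1 bp of same-strand overlap, a step tested on simulated peaks. Those peaks shared a core within each site, so chains of overlaps without a common base were not tested. All 10 genes are described. Python 3.11.15, pandas 2.3.3 and SciPy 1.17.1 were used. The genes and lists were chosen with earlier results of these data known. The alternatives were a score minimum, equal list length, other gene rules, no wide peaks and other overlap rules. Sequences of the peaks are not shown, since no genome was used here.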

Additional observations from a re-analysis of the deposited data

How the results depend on the processing

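No paired analysis was possible because each condition has 1 immunoprecipitated library; no replicate could be left out for the same reason. When only peaks reaching the median score of their list were kept, the peaks of the 10 genes numbered 14 in TBP, 15 in TCP, 7 in TIP and 12 in control. There were then 25 sites, 6 of them in at least 3 lists and 12 in 1 list. Ythdc1 was then the 1 gene gained in TBP, the 1 gained in TCP and the 1 gained in TIP. In TCP 0 were lost, and Ythdf1, in place of Fto, was the gene lost in TIP. The shares over all genes and all sites were not counted under this limit or at equal list length. At equal list length (3034 best-scored peaks, ties included) 14 peaks remained in TBP and 11 in TCP, in 27 sites of which 12 were in 1 list. There 0 genes were gained in TCP, 0 lost in TCP and 0 lost in TIP. The control list kept 3290 peaks because of a tie at the cut. Ythdc1 was not counted as gained only because its control peak of rank 2938 was in that tie. Ythdf1 then had 2 peaks in TCP, against 4 in the full list. Under both limits the gene lost in TBP was Ythdf1 in place of Fto. With 50% reciprocal overlap 1 site was in all 4 lists, the leading one of Ythdf3. With peaks within 100 bp merged there were 27 sites, 13 of them in 1 list. With touching peaks joined, 7 of 39 sites were in all 4 lists. With ties at the largest rank, the best Ythdf3 peak in TIP stood at 10.4%. The gained and lost calls thus differed with the peaks kept, and so did the number of all sites. The count of sites in all 4 lists stayed at 4 under the median and at equal list length. That in at least 3 lists stayed at 10 at equal list length. The rule for joining peaks also moved the site counts. The authors' nearest-gene column, the gene span on the strand and leaving out peaks over 500 bp changed no call of a gene; the nearest-gene column took the 3′ UTR peak from Ythdf1. No peak of these genes was over 500 bp wide.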
